A study of Mus musculus with 6 samples.

Results

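The genes described here carry the type I interferon signal from the cell surface to the nucleus and shut it off again. They are Ifnar1, Ifnar2, Jak1, Tyk2, Stat2, Irf9, Socs1, Socs3 and Usp18, taken by symbol from the deposited table of estimated counts, which makes 9 of its 30055 genes. Their RNA was measured in endothelial cells isolated from lungs of Ch25h-null C57BL6 mice, 3 weeks old and labelled female, and cultured with endothelial growth factor and heparin. All groups lack Ch25h, the gene of cholesterol 25-hydroxylase, so no wild-type cells stand beside them. The vehicle group received no vesicles. The TEV group received extracellular vesicles of MC38 mouse colorectal tumour cells at 20 µg per ml for 12 h. The TEV plus reserpine group received the same vesicles after 8 h with 10 µM reserpine, a drug that blocks vesicular monoamine transporters. The sample labels name reserpine in that group alone and are followed here, but the series' design text can be read as reserpine for all cells, in which case the comparisons below would have another meaning. Each of the 3 groups held 2 libraries, and no group with reserpine alone was analysed here. The labels do not say whether libraries of a group came from separate animals or cultures, so p-values measure only the spread between these libraries, which may be technical.

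Type I interferons bind a receptor built from the chains Ifnar1 and Ifnar2. The receptor carries the kinases Tyk2, on Ifnar1, and Jak1, on Ifnar2, which phosphorylate STAT proteins. Stat2 then joins another STAT protein and the DNA-binding protein Irf9 to form ISGF3, a transcription factor that switches on interferon-stimulated genes through the interferon-stimulated response element. Socs1 and Socs3 are inhibitors of JAK kinases, and Usp18 is a protease that removes Isg15 from proteins and also blocks signalling at Ifnar2. In endothelium this pathway takes part in antiviral defence and restrains vessel growth.

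Some of these genes hold the sequence elements of the pathway next to their own start. The 250 bases before the annotated start are shown for the members with a match, from RefSeq on GRCm38.p6, written on the strand of the gene from 5′ to 3′. Capitals mark matches on either strand to the response element, searched as GAAA and GAAA with any 2 bases between them (Stat2, on the reverse strand, and Socs1), or to the gamma-activated sequence that STAT dimers bind, searched as TTC and GAA with any 3 bases between them (Ifnar2 and Socs3).
Stat2, chr10:128270248-128270497, plus strand: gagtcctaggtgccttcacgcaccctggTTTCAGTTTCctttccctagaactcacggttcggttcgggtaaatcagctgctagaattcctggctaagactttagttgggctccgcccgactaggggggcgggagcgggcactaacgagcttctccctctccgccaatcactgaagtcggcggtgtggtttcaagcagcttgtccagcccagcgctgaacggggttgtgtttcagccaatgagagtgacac
Socs1, chr16:10785537-10785786, minus strand: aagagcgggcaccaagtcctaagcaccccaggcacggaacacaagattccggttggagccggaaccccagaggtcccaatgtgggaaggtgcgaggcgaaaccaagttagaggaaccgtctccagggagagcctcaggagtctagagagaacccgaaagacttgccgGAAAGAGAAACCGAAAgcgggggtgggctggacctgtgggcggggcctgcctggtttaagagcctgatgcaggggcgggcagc
Ifnar2, chr16:91372533-91372782, plus strand: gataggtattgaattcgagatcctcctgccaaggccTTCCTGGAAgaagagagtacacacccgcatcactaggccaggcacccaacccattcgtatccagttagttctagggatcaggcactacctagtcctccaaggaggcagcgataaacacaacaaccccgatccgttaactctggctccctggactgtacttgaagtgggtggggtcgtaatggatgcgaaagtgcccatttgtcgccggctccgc
Socs3, chr11:117969367-117969616, minus strand: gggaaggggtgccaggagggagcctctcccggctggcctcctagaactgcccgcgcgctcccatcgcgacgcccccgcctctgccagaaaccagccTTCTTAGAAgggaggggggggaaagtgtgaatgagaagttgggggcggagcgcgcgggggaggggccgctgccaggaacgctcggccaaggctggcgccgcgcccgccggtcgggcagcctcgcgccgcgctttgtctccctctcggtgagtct
The match of Stat2 lay 222 to 213 bases before the start, that of Ifnar2 214 to 206 and that of Socs3 154 to 146. Socs1 held 2 matches that overlap, at 83 to 74 and 77 to 68 bases before the start, which merge into a single run of capitals. The windows of Ifnar1, Jak1 and Tyk2 and both annotated starts of Irf9 held neither set of letters, and Usp18 was not matched in the promoter table (8 of 9 members matched). Over all 32851 windows of this length, 2.98% held the response element and 7.02% the gamma-activated sequence. The bases just after the start were found in a GENCODE transcript of the gene for Ifnar2, Jak1, Irf9 and Socs1. They were not found for Ifnar1, Tyk2, Stat2 and Socs3, whose windows rest on the RefSeq start alone. A match describes letters and is not evidence of binding.

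Total depth ranged from 22270657 to 81225627 estimated counts, so that 3 counts corresponded to between 0.0382 and 0.134 CPM, the count scaled to library depth with TMM factors. Ch25h was read at 0.348 and 0.313 CPM with vehicle, 0.333 and 0.522 CPM with TEV, and 1.07 and 0.919 CPM with TEV plus reserpine. The labels do not say what the Ch25h deletion removes, and these few reads do not check the genotype. All 12 endothelial markers, among them Pecam1 and Cdh5, were detected, and their summed level was 4974 to 5029 CPM with vehicle, 10132 to 10306 with TEV and 9836 to 10062 with TEV plus reserpine. With TEV 8 of them were called higher and 4 lower than with vehicle, where 25.1% of all genes were called higher and 24.6% lower. The 4 lower were Kdr, Tek, Vwf and Cldn5 (log2 changes -1.92, -0.31, -3.02 and -2.93). The 10 fibroblast markers summed to 16891 to 18076 CPM with vehicle, 15726 to 17106 with TEV and 16677 to 18349 with TEV plus reserpine. Without Fn1, which endothelial cells make too and which was set aside after its values were seen, the other 9 summed to 2856 to 3285 CPM with vehicle, 50.7 to 58.3 with TEV and 68.2 to 83.8 with TEV plus reserpine. Of the 9 fibroblast markers tested, 8 were lower with TEV than with vehicle, as were all 9 pericyte and smooth muscle markers, whose sums were 1999 to 2022, 782 to 891 and 850 to 931 CPM. In both vesicle groups Tcf21 and Cspg4 were at 0, and Lum was at 0 with TEV plus reserpine. Macrophage and leukocyte markers summed to 48.2 to 59.8, 22.0 to 22.5 and 29.6 to 30.6 CPM, and markers of lung epithelium and mesothelium to 18.7 to 20.0, 1.57 to 1.69 and 1.52 to 1.61 CPM. Scgb1a1 and Msln were at 0 in both vesicle groups, Epcam with vehicle and with TEV plus reserpine, and Cd3e with vehicle and with TEV. Colon tumour markers summed to 21.4 to 22.4, 67.4 to 70.1 and 57.3 to 63.4 CPM. With TEV 3 of the 5 colon tumour markers tested were higher, Krt18 and Krt19 among them, and Lgals4 was lower (-1.42, edgeR adjusted p = 0.0145). Of the 7 macrophage and leukocyte markers tested, 3 were lower and Cd68 was higher (0.85, edgeR adjusted p = 0.0117), and of the 5 lung epithelium and mesothelium markers tested 4 were lower. Lgals4, Cd68 and the 4 lower endothelial markers were named after their values were seen. Fewer cells of a type and less RNA per cell cannot be told apart in these bulk samples, and the part of cell composition in the changes between vehicle and either vesicle group was not tested.

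Levels of different genes were compared per length, as CPM per kb of the longest protein-coding GENCODE transcript. With vehicle the order ran from Jak1 (77.2 ± 1.82 CPM per kb, SD, n = 2) through Ifnar1 (36.3 ± 1.00), Ifnar2 (19.1 ± 1.20), Socs3 (13.0 ± 1.46), Irf9 (6.99 ± 0.416) and Stat2 (3.90 ± 0.113) to Tyk2 (0.809 ± 0.518), Usp18 (0.580 ± 0.125) and Socs1 (0.0299 ± 0.0423). Only Tyk2 and Usp18 were neighbours whose mean ± SD overlapped. With TEV, Jak1 stayed the highest per length (57.4 ± 0.637 CPM per kb), while Ifnar1 (16.6 ± 1.42), Irf9 (14.0 ± 4.49) and Ifnar2 (13.9 ± 1.31) overlapped in sequence, as did Socs3 (7.57 ± 1.36), Stat2 (7.41 ± 2.42) and Usp18 (7.08 ± 4.69). With TEV plus reserpine, Jak1 (75.6 ± 3.89), Ifnar1 (34.5 ± 1.25) and Ifnar2 (21.1 ± 1.78) again led without overlap. Irf9, Usp18, Stat2 and Socs3 followed, each overlapping the next.

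**Figure D1:**
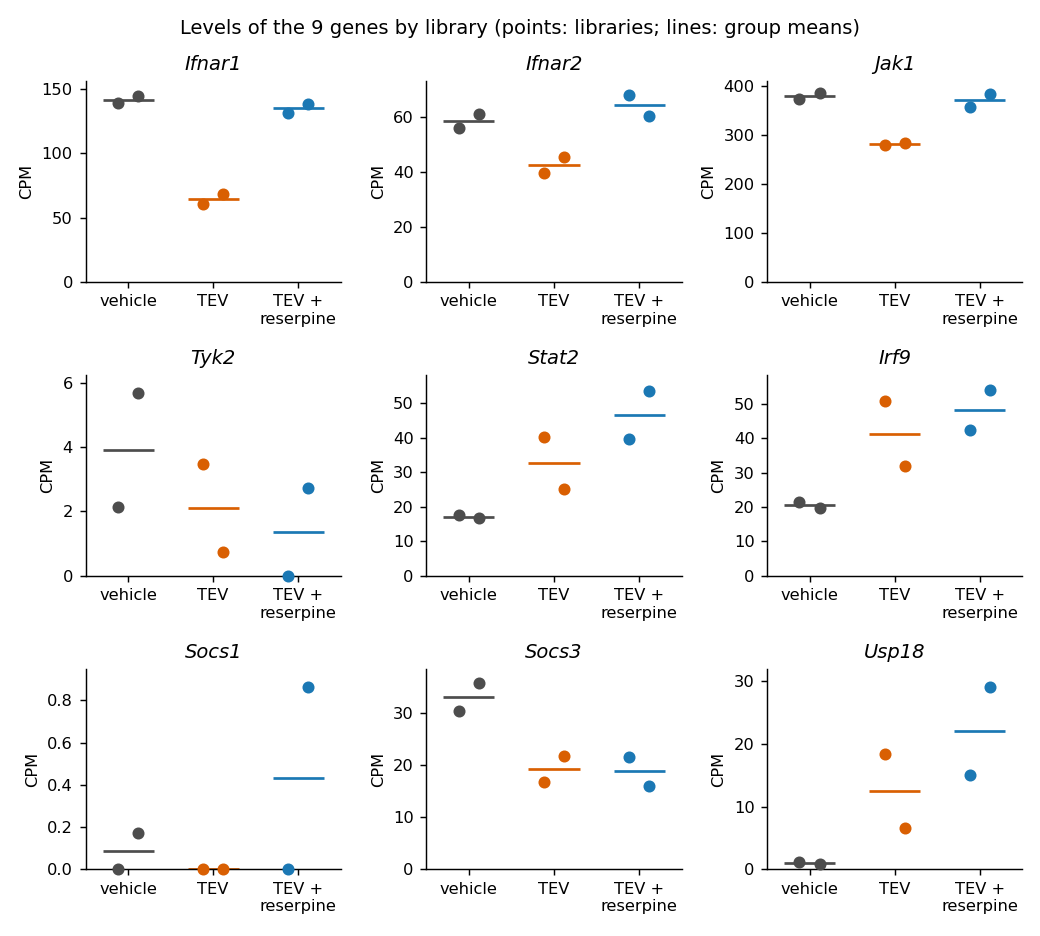
CPM (linear axis from 0) of the 9 genes in each library, with points for libraries, lines for means of 2 libraries, and a separate scale in each panel. The receptor chains and Jak1 are lowest in the TEV libraries, whereas Stat2, Irf9 and Usp18 are lowest with vehicle.

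Cells given tumour vesicles were first set against cells given vehicle. With TEV, the RNA of both receptor chains, Jak1 and Socs3 was lower than with vehicle, and the RNA of Stat2, Irf9 and Usp18 was higher. Of the 8 members tested, 3 were called higher and 4 lower (edgeR, adjusted p under 0.05). Over all 15035 genes tested, 25.1% were called higher and 24.6% lower (49.7% in either direction), so a large share of all genes moved too. The libraries of the 2 groups did not overlap for 7 of the 8 members, against 78.9% of all genes. The median log2 change of the 8 members was -0.44, beside 0.01 over all genes. When libraries were scaled by size without TMM, the median over all genes became -0.11, 39.8% rather than 50.5% of called genes were higher, and the members' counts stayed at 3 and 4.

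The second comparison asked how cells given reserpine before the vesicles differ from cells given vesicles alone. Ifnar1, Ifnar2 and Jak1 were higher with TEV plus reserpine, and 0 of the 8 members were called lower by edgeR, with 0 also at an unadjusted p under 0.05, by DESeq2 and by limma-voom. The same held for each list below whose count of genes called lower is 0. Over all genes 15.7% were called higher and 16.0% lower (31.6% in either direction). The libraries of these groups did not overlap for 3 of the 8 members, against 70.7% of all genes. With scaling by size without TMM, 59.4% rather than 49.5% of called genes were higher. The median log2 change of the members was 0.46, beside 0.00 over all genes. In the third comparison, of TEV plus reserpine with vehicle, Stat2, Irf9 and Usp18 were higher and Socs3 was lower, where 19.1% of all genes were called higher and 19.9% lower (39.1% in either direction). The libraries did not overlap for 5 of the 8 members, against 73.5% of all genes. The median log2 change there was 0.05 for the members and -0.02 over all genes. The 3 comparisons share groups, so the changes in them are not independent of each other.

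**Figure D2:**
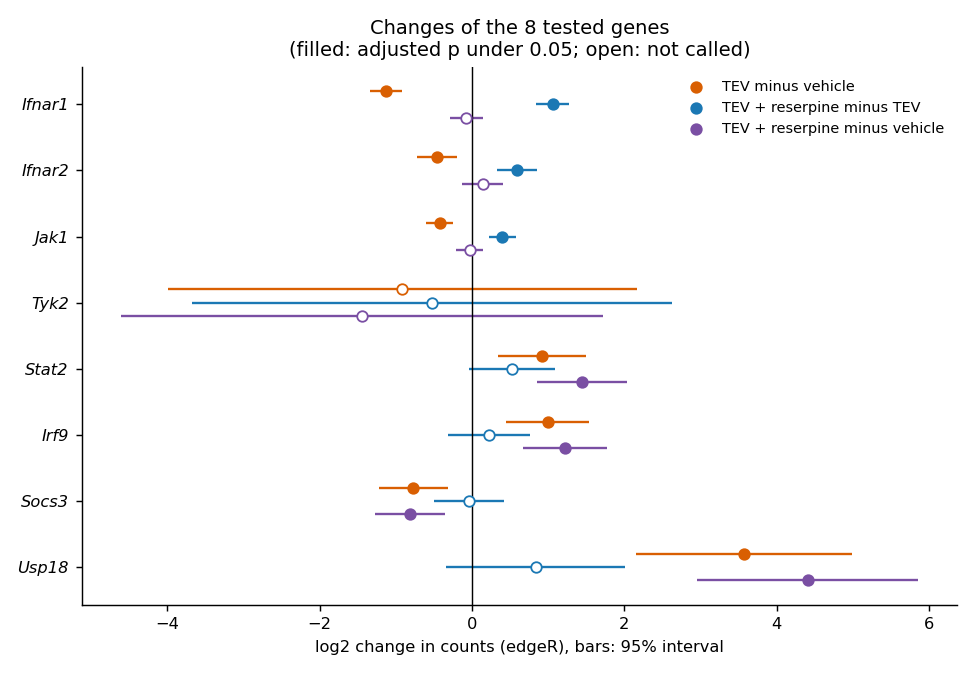
Log2 change of each tested member in the 3 comparisons by edgeR, with 95% intervals, where filled points had an adjusted p under 0.05. Ifnar1, Ifnar2 and Jak1 are below 0 for TEV minus vehicle, above 0 for TEV plus reserpine minus TEV, and close to 0 for TEV plus reserpine minus vehicle.

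Ifnar1, the chain that carries Tyk2, was read at 139 and 145 CPM with vehicle, at 60.8 and 68.6 CPM with TEV, and at 131 and 138 CPM with TEV plus reserpine. The TEV libraries lay far under the other 4, while every vehicle library was slightly above both libraries with TEV plus reserpine. With TEV it fell by 1.13 on the log2 scale (SE 0.09, edgeR adjusted p = 0.00013), a 2.19-fold lower level than with vehicle. From TEV to TEV plus reserpine it rose by 1.06 (SE 0.09, edgeR adjusted p = 0.000812), or 2.08-fold. Between TEV plus reserpine and vehicle the log2 change was -0.07 with a 95% interval of -0.28 to 0.14 (edgeR adjusted p = 0.549).

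Ifnar2, the chain that carries Jak1, had smaller changes of the same sign in both comparisons. It was read at 55.7 and 60.9 CPM with vehicle, at 39.7 and 45.3 CPM with TEV, and at 68.1 and 60.4 CPM with TEV plus reserpine. The TEV libraries were again the lowest, and the other groups overlapped. It fell by 0.45 with TEV (SE 0.11, edgeR adjusted p = 0.0136) and rose by 0.59 from TEV to TEV plus reserpine (SE 0.11, edgeR adjusted p = 0.00976). The first call ended without vehicle replicate 2 (edgeR adjusted p = 0.0812) or TEV replicate 1 (0.0784), and the second without TEV replicate 1 (0.0546) or replicate 1 of TEV plus reserpine (0.0555). Between TEV plus reserpine and vehicle the log2 change was 0.14, with a 95% interval of -0.12 to 0.40.

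The unequal size of these changes can be read within each library, where scaling has no part. Ifnar1 counts were 2.50 and 2.38 times those of Ifnar2 with vehicle, 1.53 and 1.51 times with TEV, and 1.93 and 2.29 times with TEV plus reserpine. The ratio was lowest in both TEV libraries and highest in both vehicle libraries, with no overlap between the groups. On the log2 scale the mean ratio differed by -0.68 between TEV and vehicle and by 0.47 between TEV plus reserpine and TEV. An exact permutation test of 2 against 2 libraries cannot give a p under 0.333, so none is given.

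**Figure D3:**
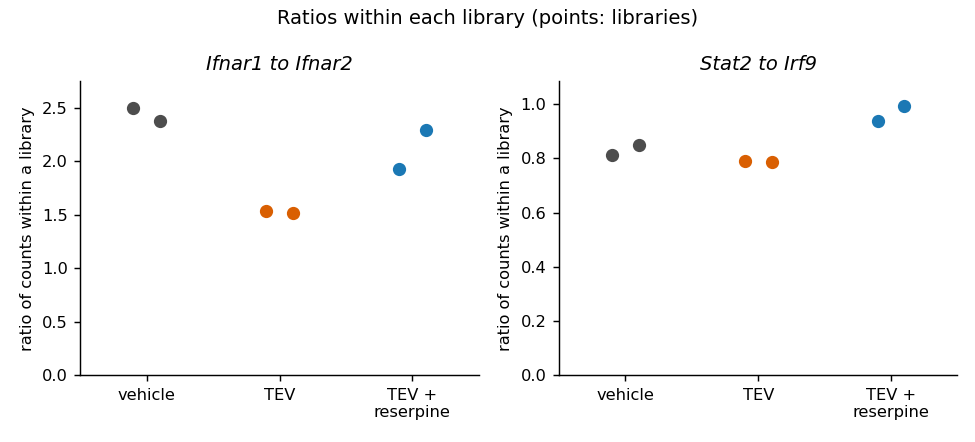
Ratio of counts within each library (linear axis from 0) of Ifnar1 to Ifnar2 and of Stat2 to Irf9, with a point for each library of the 3 groups. The receptor ratio is 1.53 and 1.51 with TEV and at least 1.93 elsewhere, and the ratio of Stat2 to Irf9 lies between 0.784 and 0.994 in all 6 libraries.

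The receptor genes lie in a cluster of cytokine receptor genes on mouse chromosome 16, in the order Ifnar2, Il10rb, Ifnar1 and Ifngr2 in RefSeq. Il10rb encodes a chain shared by receptors of interleukin 10 and type III interferon, and Ifngr2 a chain of the receptor for interferon gamma. These 2 neighbours were named after their values were seen. Il10rb was read at 51.2 and 55.5 CPM with vehicle, at 35.6 and 43.0 CPM with TEV, and at 59.6 and 64.1 CPM with TEV plus reserpine. It fell by 0.44 with TEV (edgeR adjusted p = 0.0189) and rose by 0.65 from TEV to TEV plus reserpine (0.00856). Ifngr2 was read at 84.1 and 111 CPM with vehicle, at 72.1 and 77.4 CPM with TEV, and at 132 and 115 CPM with TEV plus reserpine. Its log2 change of -0.38 with TEV missed the threshold (edgeR adjusted p = 0.0634), and it rose by 0.72 from TEV to TEV plus reserpine (0.0119). Tmem50b, the next protein-coding gene and no cytokine receptor, was at 0.24 (edgeR adjusted p = 0.0665) and -0.32 (0.0385) in the same comparisons.

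Jak1, the kinase bound to Ifnar2 and to many other cytokine receptors, was read at 373 and 385 CPM with vehicle, at 280 and 284 CPM with TEV, and at 357 and 384 CPM with TEV plus reserpine. The TEV libraries stood below the other 4, which overlapped. Jak1 fell by 0.43 with TEV (SE 0.07, edgeR adjusted p = 0.00332) and rose by 0.40 from TEV to TEV plus reserpine (SE 0.07, edgeR adjusted p = 0.00955). Between TEV plus reserpine and vehicle the log2 change was -0.03, with a 95% interval of -0.21 to 0.14.

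Tyk2, the kinase bound to Ifnar1, was read at 2.14 and 5.68 CPM with vehicle, at 3.47 and 0.738 CPM with TEV, and at 0 and 2.73 CPM with TEV plus reserpine. The libraries of every group overlapped those of the others, and replicates differed by more than the group means. No change was called, and the 95% interval of the log2 change with TEV ran from -3.99 to 2.16. These low and uneven counts set Tyk2 apart from Jak1, and a change anywhere in that interval could not be told from none.

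Stat2, the STAT subunit of ISGF3, was read at 17.5 and 16.8 CPM with vehicle, at 40.1 and 25.1 CPM with TEV, and at 39.5 and 53.6 CPM with TEV plus reserpine. Both vehicle libraries were lower than the other 4, and the vesicle groups overlapped. It rose by 0.92 with TEV (SE 0.24, edgeR adjusted p = 0.0186) and by 1.44 from vehicle to TEV plus reserpine (SE 0.25, edgeR adjusted p = 0.00447). The change from TEV to TEV plus reserpine, 0.52, was not called (95% interval -0.04 to 1.09, edgeR adjusted p = 0.137), but was 0.89 and called without TEV replicate 1 (0.0408). Without vehicle replicate 1 (edgeR adjusted p = 0.0651), vehicle replicate 2 (0.0746) or TEV replicate 1 (0.0652) the call with TEV ended, and without TEV replicate 1 the log2 change was 0.57.

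Irf9, the DNA-binding subunit of ISGF3, was read at 21.6 and 19.8 CPM with vehicle, at 50.7 and 31.9 CPM with TEV, and at 42.3 and 54.0 CPM with TEV plus reserpine. As for Stat2, vehicle was lowest and the vesicle groups overlapped. Irf9 rose by 0.99 with TEV (SE 0.23, edgeR adjusted p = 0.011) and by 1.22 from vehicle to TEV plus reserpine (SE 0.23, edgeR adjusted p = 0.00693), and from TEV to TEV plus reserpine its log2 change was 0.23 (95% interval -0.31 to 0.76). The call with TEV ended without vehicle replicate 2 (edgeR adjusted p = 0.0545). The ratio of Stat2 to Irf9 within a library was 0.811 and 0.847 with vehicle, 0.790 and 0.784 with TEV, and 0.936 and 0.994 with TEV plus reserpine, so that it was highest in both libraries with reserpine.

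Usp18, the brake that is itself an interferon-stimulated gene, had the largest change of the 8 members tested. It was read at 1.18 and 0.870 CPM with vehicle, at 18.4 and 6.67 CPM with TEV, and at 15.1 and 29.1 CPM with TEV plus reserpine. Every vesicle library lay above both vehicle libraries, and the vesicle groups overlapped. It rose by 3.57 with TEV (SE 0.60, edgeR adjusted p = 0.0029), an 11.9-fold change, and by 4.41 from vehicle to TEV plus reserpine (SE 0.61, edgeR adjusted p = 0.00194), a 21.2-fold change. Without TEV replicate 1 the log2 change with TEV was 2.69, and without TEV replicate 2 it was 4.13, with the call kept in both. The log2 change from TEV to TEV plus reserpine was 0.84 and not called (95% interval -0.34 to 2.02, edgeR adjusted p = 0.236), and was called without TEV replicate 1 (0.0497).

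Within each vesicle group the replicates differed in the same direction for Stat2, Irf9 and Usp18. TEV replicate 1 was above TEV replicate 2 by 1.60-fold in Stat2, 1.59-fold in Irf9 and 2.76-fold in Usp18. Replicate 2 of TEV plus reserpine was above replicate 1 by 1.36-fold, 1.28-fold and 1.93-fold. The list of 30 ISGF3 target genes had 28 that were tested, Isg15 and Irf7 among them. Of these, 27 were higher in TEV replicate 1 than in TEV replicate 2, where 50.1% of all genes were. Of the same 28 genes, 23 were higher in replicate 2 of TEV plus reserpine than in replicate 1, against 49.6% of all genes. The summed level of the targets was 448 and 449 CPM with vehicle, 1028 and 766 CPM with TEV, and 1062 and 1288 CPM with TEV plus reserpine. The vesicle libraries thus differed among themselves in the level of interferon-stimulated RNA, also within a group.

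**Figure D4:**
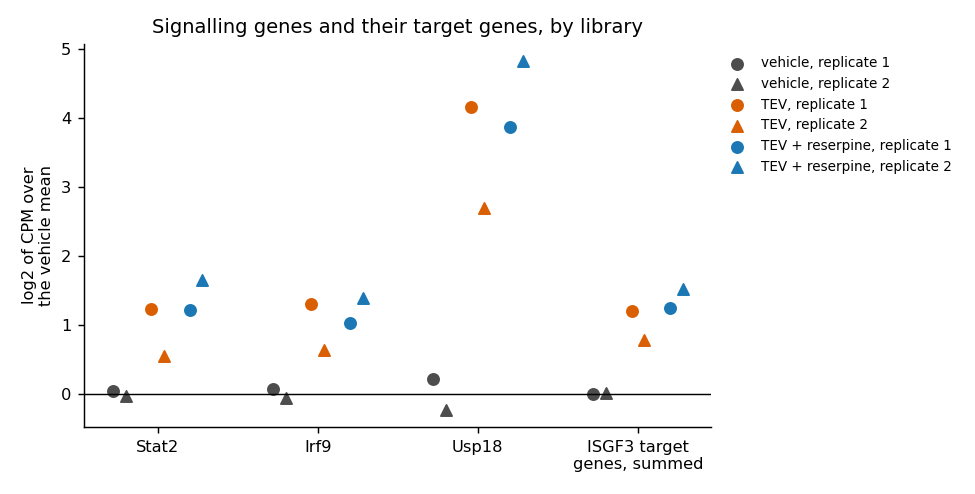
Log2 of the CPM in each library over the vehicle mean for Stat2, Irf9, Usp18 and the summed ISGF3 target genes, with circles for replicate 1 and triangles for replicate 2. TEV replicate 1 lies above TEV replicate 2, and replicate 2 of TEV plus reserpine above replicate 1, in all 4 columns.

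Socs3, an inhibitor of JAK kinases best known from gp130 cytokine signalling, was read at 30.5 and 35.8 CPM with vehicle, at 16.9 and 21.8 CPM with TEV, and at 21.7 and 16.0 CPM with TEV plus reserpine. Both vehicle libraries were above the other 4, and the vesicle groups overlapped. It fell by 0.77 with TEV (SE 0.19, edgeR adjusted p = 0.0143) and by 0.82 from vehicle to TEV plus reserpine (SE 0.19, edgeR adjusted p = 0.0162). The first call ended without vehicle replicate 2 (edgeR adjusted p = 0.0728) or TEV replicate 1 (0.0789), and the second without vehicle replicate 2 (0.0785) or replicate 2 of TEV plus reserpine (0.0825). Between the vesicle groups the log2 change was -0.05, with a 95% interval of -0.51 to 0.41. The pericyte and smooth muscle sum, and the fibroblast sum without Fn1, were likewise higher with vehicle than in both vesicle groups, whereas the fibroblast sum with Fn1 overlapped between them. The part of those cells in the change of Socs3 was not tested.

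Socs1, the inhibitor whose promoter window held the overlapping response elements, was almost absent. Its estimated counts were 0 and 5.26 with vehicle, 0 and 0 with TEV, and 0 and 29.7 with TEV plus reserpine. Reads thus came from 1 library of each of the groups that had any, and the gene did not pass the filter on low counts, so no change is given. A count of 0 allows up to 3 counts, which is 0.0833 and 0.0382 CPM in the TEV libraries.

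Interferon genes gave few reads in any group. The list of 21 holds type I interferons, which bind the receptor described here, and also Ifng, Ifnl2 and Ifnl3, which bind others. Of the 21, 13 had no count in any library, Ifng and Ifnk among them. The 20 interferon genes other than Ifnz summed to 2.02 and 0 estimated counts with vehicle, 3.97 and 9.95 with TEV, and 0.992 and 5.94 with TEV plus reserpine. Ifnb1, the interferon that many cell types make, reached at most 1.98 estimated counts in a library. Ifnz alone passed the filter, at 23.3 and 35.6 estimated counts with vehicle, 28.8 and 48.2 with TEV, and 9.37 and 17.9 with TEV plus reserpine, and was not called in any comparison (edgeR adjusted p = 0.623, 0.427 and 0.219). Interferon genes are similar in sequence and can share reads.

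Beyond the members, 19 of the 28 ISGF3 target genes tested were called higher with TEV and 1 lower. Over all genes these shares were 25.1% and 24.6%. The median log2 change of the 28 with TEV was 1.15. Isg15, the ubiquitin-like modifier that Usp18 removes, rose by 3.70 (edgeR adjusted p = 0.00209). Ifit2, an interferon-induced RNA-binding protein, fell by 0.61 (edgeR adjusted p = 0.0235), a call that ended without vehicle replicate 1 (0.12) or either TEV replicate (0.0718 and 0.0946). From vehicle to TEV plus reserpine 26 of the 28 were higher and 1 lower, beside 19.1% and 19.9% of all genes, with a median of 2.39. From TEV to TEV plus reserpine 11 were higher and 0 lower by edgeR, beside 15.7% and 16.0%, with a median of 0.64. The antiviral gene Rsad2 was among the 11 (2.30, edgeR adjusted p = 0.0406). The call of Rsad2 ended without either TEV replicate (0.0865 and 0.151) or replicate 2 of TEV plus reserpine (0.235).

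Irf7, an amplifier of interferon production and an ISGF3 target, was read at 1.28 and 2.30 CPM with vehicle, at 7.61 and 5.02 CPM with TEV, and at 14.0 and 13.6 CPM with TEV plus reserpine. It rose by 1.83 with TEV (edgeR adjusted p = 0.00377). Irf1, a factor induced by interferon gamma, was read at 12.9 and 22.5 CPM with vehicle, at 4.58 and 4.84 CPM with TEV, and at 16.1 and 20.3 CPM with TEV plus reserpine. It fell by 1.90 with TEV (edgeR adjusted p = 0.00164) and rose by 1.95 from TEV to TEV plus reserpine (0.00397), with the TEV libraries lowest as for Ifnar1. Of the 7 IRF genes tested besides Irf9, 3 were higher and 1 lower with TEV, beside 25.1% and 24.6% of all genes. From TEV to TEV plus reserpine 2 were higher and 0 lower by edgeR, beside 15.7% and 16.0%. The 2 were Irf1 and Irf7. The log2 change of Irf7 was 1.14 (edgeR adjusted p = 0.0302). This call ended without TEV replicate 2, where the log2 change was 0.87. It also ended without replicate 1 (1.12) or replicate 2 (1.16) of TEV plus reserpine. With the replicate numbers of the titles added to the model, Irf7 was not called (edgeR adjusted p = 0.0534).

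The 8 other JAK and STAT genes were all tested. With TEV 2 of them were called higher and 4 lower, beside 25.1% and 24.6% of all genes. From vehicle to TEV plus reserpine 2 were higher and 3 lower, beside 19.1% and 19.9%. A higher call in each of these comparisons was close to the threshold. That of Stat6 with TEV (0.26, edgeR adjusted p = 0.0491) was lost with any 1 library left out (0.061 to 0.276), and so was that of Stat4 from vehicle to TEV plus reserpine (1.01, edgeR adjusted p = 0.041; 0.0572 to 0.186). From TEV to TEV plus reserpine edgeR called 0 in either direction, beside 15.7% of all genes higher and 16.0% lower. Of the 8 genes, 3 were higher at an unadjusted p under 0.05, and DESeq2 called 1 higher and limma-voom 0. Jak2, the kinase of many haematopoietic cytokine receptors, was read at 38.3 and 33.9 CPM with vehicle, at 17.2 and 18.7 CPM with TEV, and at 20.1 and 19.0 CPM with TEV plus reserpine. It fell by 1.01 with TEV (edgeR adjusted p = 0.000541) and by 0.89 from vehicle to TEV plus reserpine (0.00147). Jak3, the kinase paired with the common gamma chain, fell by 1.78 and 1.42 in these comparisons (edgeR adjusted p = 0.000114 and 0.000426).

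Genes known to act on the turnover of Ifnar1 protein were higher with TEV for 6 of 9 tested and lower for 0 by edgeR. Over all genes these shares were 25.1% and 24.6%. The median log2 change of the 9 was 0.43. Eif2ak3 encodes PERK, a kinase of the unfolded protein response that promotes degradation of Ifnar1. It was read at 49.0 and 41.1 CPM with vehicle, at 261 and 215 CPM with TEV, and at 77.7 and 89.7 CPM with TEV plus reserpine. It rose by 2.40 with TEV (edgeR adjusted p = 4.37e-05) and fell by 1.51 from TEV to TEV plus reserpine (0.000969). Its level was highest in both TEV libraries, where that of Ifnar1 RNA was lowest, and a link was not tested. Btrc, the receptor subunit of the ubiquitin ligase for Ifnar1, rose by 1.69 with TEV (edgeR adjusted p = 0.0318), a call that ended without vehicle replicate 1 (0.0926) or either TEV replicate (0.0656 and 0.103). Prkd2, a kinase that marks Ifnar1 for that ligase, rose by 0.82 with TEV (edgeR adjusted p = 0.000797). From vehicle to TEV plus reserpine Prkd2 rose by 0.90 (edgeR adjusted p = 0.000839). Of these 9 genes, 4 were higher from vehicle to TEV plus reserpine, beside 19.1% of all genes. Eif2ak3 alone was lower from TEV to TEV plus reserpine, beside 16.0% of all genes. RNA levels of these genes do not measure the receptor protein.

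Of 16 other brakes on cytokine signalling, 3 were higher and 2 lower with TEV, beside 25.1% and 24.6% of all genes. The 2 lower were Socs4 (-0.41, edgeR adjusted p = 0.0128) and Socs5 (-0.27, 0.0426). Both calls ended when either vehicle replicate was left out, and also with some other libraries left out. Counts were 2 higher and 3 lower from TEV to TEV plus reserpine, beside 15.7% and 16.0%. Against vehicle, TEV plus reserpine had 2 higher and 2 lower, beside 19.1% and 19.9%. Pias2, an inhibitor of STAT activity, rose by 0.93 with TEV (edgeR adjusted p = 0.00256) and fell by 1.01 from TEV to TEV plus reserpine (0.00476). Socs2, an inhibitor of growth hormone signalling, rose by 0.82 with TEV (edgeR adjusted p = 0.000516). From vehicle to TEV plus reserpine Socs2 rose by 1.06 (edgeR adjusted p = 0.000273).

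**Figure D5:**
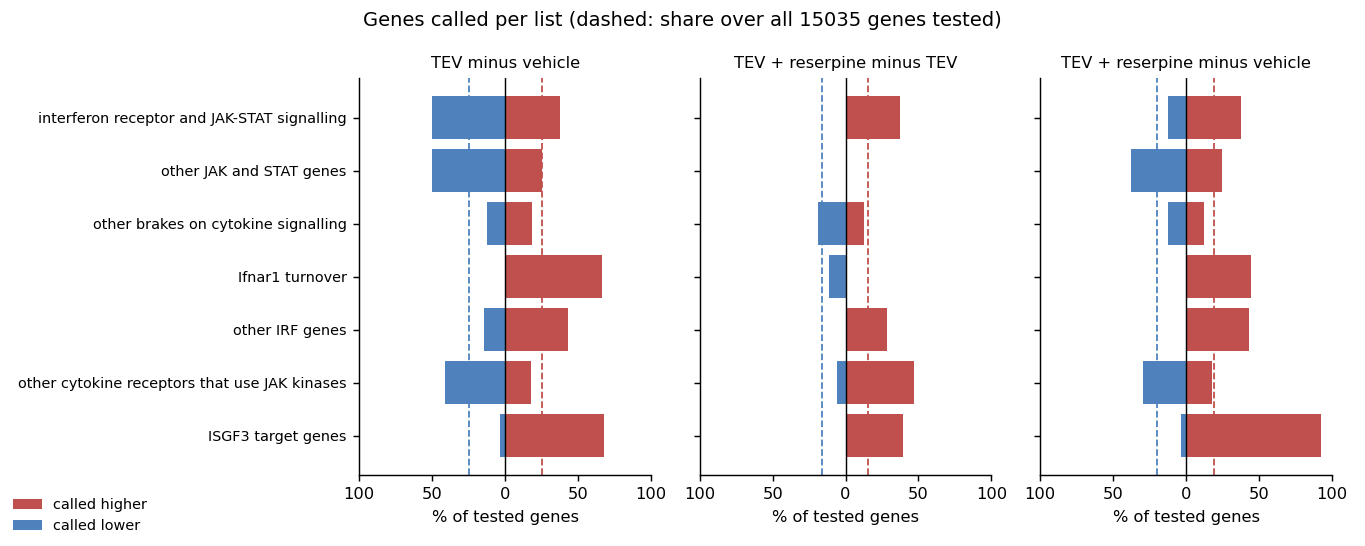
Share of tested genes called higher (right) or lower (left) in each list for the 3 comparisons by edgeR at an adjusted p under 0.05, with dashed lines for the share over all 15035 genes. The ISGF3 targets are called higher for 19, 11 and 26 of 28 genes, and the 8 tested receptor and JAK-STAT members for 3 in each comparison.

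The likeness of these patterns was described with Pearson's r of log2 CPM over the 6 libraries, among 10430 genes with at least 5 CPM on average. Within the members, Ifnar1 and Jak1 were most alike (0.991), Ifnar2 was nearest to Ifnar1 (0.925), and Irf9 and Usp18 were most alike (0.991), with Stat2 nearest to Irf9 (0.983). The highest r was 0.479 for Socs3, to Ifnar1, and 0.161 for Tyk2, to Socs3. Only the highest r was searched, so inverse likeness was not described. Over all genes, Kit, a receptor tyrosine kinase, was most like Ifnar1 (0.999) at 76.8 and 83.3 CPM with vehicle, 9.36 and 12.6 CPM with TEV, and 71.3 and 69.2 CPM with TEV plus reserpine. Next to Ifnar1 came D930048N14Rik and Zfp41 (0.999 each). Blzf1 was most like both Irf9 (0.995) and Usp18 (0.997), and Samd9l, an interferon-stimulated gene, followed for Usp18 (0.997). Blzf1 was read at 22.4 and 22.2 CPM with vehicle, 27.6 and 25.4 with TEV, and 26.6 and 28.4 with TEV plus reserpine. Pearson's r takes no account of the size of a change. The points share their library and group, so many genes reach such values.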

How the data were processed

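RNA was extracted with Trizol, and polyA libraries made with a TruSeq kit were sequenced as 75 bp single-end reads, per the labels' protocols. Reads were quantified with kallisto 0.45.0 and handled in R 4.0.0 with edgeR and limma, per the submitters' processing notes. The authors deposited estimated counts per gene symbol in a raw table, used here, and in a filtered table of 13098 genes whose values equal the raw ones (0 differences). The notes name GRCh38 although the symbols are mouse genes. The reference tables (GENCODE M21, RefSeq GRCm38.p6) therefore gave only names, lengths, gene order, promoter sequence and a check of starts. No source states the strand of the libraries.

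Columns were matched to samples by the labels' descriptions, and groups and replicate numbers are those of the titles. Estimated counts were rounded. Genes passing filterByExpr (15035, among them 8 of the 9 members) were scaled with TMM and fitted in 1 edgeR 4.0.16 quasi-likelihood model of all 6 libraries (R 4.3.3) that left 3 residual degrees of freedom. Benjamini-Hochberg adjustment ran over all genes tested, and genes were called at an adjusted p under 0.05. SEs were derived from the F statistic, and intervals are 95%. CPM used TMM-scaled totals, and ± is the SD. Floors from counts cover counting error only. Alternatives used DESeq2 1.42.0, limma-voom 3.58.1, other scalings and filters, thinning and left-out libraries. The fits were checked on simulated data.

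The members and gene lists were chosen with earlier results of these data known. From the other lists, the rule named up to 2 called genes with the largest and 2 with the smallest changes at a mean of at least 1 CPM, and not every gene it picks is named. Besides the members, the lists were ISGF3 targets, other IRF genes, other JAK and STAT genes, other brakes, Ifnar1 turnover, interferon ligands, other JAK-using cytokine receptors and 6 sets of cell type markers. Isg15 and Irf7 are each in 2 lists. Ratios involving Socs1 or Tyk2 were not computed, since both have libraries at 0.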

Additional observations from a re-analysis of the deposited data

How the results depend on the processing

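Each member change was refitted under 16 alternatives. Of the 14 called member changes, 8 kept their call under every alternative, 6 lost it under at least 1, and 0 changed sign. Those of Ifnar1 and Jak1 were kept throughout, with an edgeR adjusted p of Jak1 of up to 0.0486 with TEV and 0.0495 from TEV to TEV plus reserpine. The title numbers are not stated to mark a shared animal or day, and the descriptions number the vesicle libraries differently. For that reason no pairs were modelled in the main fit. Same-numbered libraries did not deviate together from their group means (r = 0.019, -0.042 and 0.024 across genes). With 2 libraries a group, these values cannot show whether libraries were paired. With a replicate block of the title numbers, the members' calls and directions were as without it (3 higher and 4 lower with TEV, edgeR), and the calls over all genes were 6864, 3840 and 5094 in the 3 comparisons, against 7476, 4757 and 5873. With a replicate block of the description numbers, which leaves 1 residual degree of freedom, 4568 genes and 2 lower members were called with TEV against vehicle, and 2702 genes and 0 lower members with TEV plus reserpine against vehicle. The lost calls were those of Ifnar2, Socs3 and Stat2 in the first (edgeR adjusted p = 0.0755, 0.0504 and 0.0634) and Socs3 in the last (0.0543), and the cause was not tested.

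Leaving out a library gave 5381 to 7430 called genes with TEV against vehicle, 2124 to 4315 with TEV plus reserpine against TEV and 3572 to 5950 with TEV plus reserpine against vehicle. The group left with 1 library is there assumed to vary like the others. Higher members numbered 1 to 3, 2 to 4 and 3 in the 3 comparisons, and lower members 2 to 4, 0 and 0 to 1. Of the 10 uncalled member changes, 4 changed sign. From TEV to TEV plus reserpine, the log2 change of Socs3 was 0.030 with scaling by library size alone and -0.27 to 0.17 with a library left out, and that of Irf9 went down to -0.060 without TEV replicate 2. That of Tyk2 went up to 0.94 without TEV replicate 1, and its lowest fitted value, -9.42 without replicate 2 of TEV plus reserpine, sets TEV against a single library at 0 and is no bound. That of Jak1 from vehicle to TEV plus reserpine was -0.082 to 0.036. The log2 difference of the ratio of Ifnar1 to Ifnar2 ranged from -0.71 to -0.64 between TEV and vehicle and from 0.34 to 0.59 between TEV plus reserpine and TEV. Socs1 was at 0 in 4 of 6 libraries, among them TEV replicate 2, the deepest at 81225627 estimated counts, and the reason was not tested. The interferon genes other than Ifnz each had under 3 estimated counts in every library, and the part of depth in this was not tested. Tyk2 had 57.9 to 163 estimated counts in all libraries but one, and why its replicates differ was not tested.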

Other observations

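Other cytokine receptors that signal through JAK kinases were lower for 7 and higher for 3 of 17 tested with TEV against vehicle. Over all genes 24.6% were lower and 25.1% higher. The median log2 change of the 17 was -0.44. From TEV to TEV plus reserpine 8 of the 17 were higher and 1 lower, beside 15.7% and 16.0% of all genes (median 0.57). Osmr, a chain of the oncostatin M receptor, was read at 111 and 120 CPM with vehicle, at 23.0 and 23.0 CPM with TEV, and at 33.1 and 35.2 CPM with TEV plus reserpine. It fell by 2.33 with TEV (edgeR adjusted p = 1.01e-05) and by 1.76 from vehicle to TEV plus reserpine (5.19e-05). Il4ra, a chain of the receptors for interleukins 4 and 13, was read at 75.8 and 71.4 CPM with vehicle, at 14.5 and 16.8 CPM with TEV, and at 41.2 and 39.3 CPM with TEV plus reserpine. It rose by 1.36 from TEV to TEV plus reserpine (edgeR adjusted p = 0.000682) and still lay below both vehicle libraries.

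Il2rg, the common gamma chain, went the other way. It was read at 19.0 and 27.0 CPM with vehicle, at 70.4 and 63.9 CPM with TEV, and at 67.6 and 72.9 CPM with TEV plus reserpine, and it rose by 1.55 with TEV (edgeR adjusted p = 0.000457) and by 1.62 from vehicle to TEV plus reserpine (0.000593). Its partner kinase Jak3 was lower in both vesicle groups. Il6st, the shared chain gp130, rose by 0.49 with TEV (edgeR adjusted p = 0.00706) and fell by 0.44 from TEV to TEV plus reserpine (0.0202). The latter call ended without TEV replicate 1 (0.095) or either replicate of TEV plus reserpine (0.0995 and 0.0501).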
